A study of Drosophila melanogaster with 9 samples.

Results

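Blood cells of adult *Drosophila melanogaster* females were compared with lymph glands of larvae, gene by gene, in 6 RNA sequencing samples. The adult hemocytes (AD) came from w1118 flies aged 5 days that were bled by perfusion with PBS, and the lymph glands (LG) were anterior lobes dissected from wandering w1118 larvae of the third instar. Each group had 3 independent biological replicates, the deposited design names females, and both groups carry the w1118 allele of *white*. The deposited values are RPKM, the reads on a gene divided by its exon length in kilobases and by a size factor of the library, and a gene was included where its RPKM exceeded 1 in at least 3 of the 6 samples, which was the case for 7748 of 17490 genes. Adult bleeds hold whatever cells the perfusion released, and dissected lobes hold niche, progenitor and differentiated cells together with any tissue attached to them. In such bulk samples, fewer cells of a type and less RNA per cell cannot be told apart.

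Drosophila blood cells are plasmatocytes, which are macrophages, crystal cells, which carry the enzymes of melanization, and lamellocytes, which encapsulate parasites. In the larva, the anterior lobes of the lymph gland hold progenitors that divide, a signaling niche called the posterior signaling center, and cells that mature into plasmatocytes and crystal cells. The gland disperses at metamorphosis, so that the blood of the adult holds cells of embryonic and of lymph gland origin and no lymph gland remains.

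From the RPKM values and the annotated exon lengths, between 2920664 and 3201822 reads were recovered per AD sample and between 2745570 and 6779942 per LG sample, of which 43.0 to 49.7% lay on rRNA genes and pseudogenes. Markers of hemocytes in general (*srp*, *Hml*, *Pxn*, *He*, *NimC1*, *crq* and *Col4a1*) were above RPKM 1 in all 6 samples. Pearson's *r* of log2(RPKM + 1) across the genes tested, which are not independent replicates, was 0.949 to 0.953 between AD replicates and 0.910 to 0.960 between LG replicates. The lowest of these values was between LG replicates 1 and 2, both of which held 60 genes more than 4-fold above the other LG replicates, against 13 such genes in LG replicate 3. In LG replicate 1 these included enzymes and hormones of the ring gland, the endocrine organ next to the lymph gland, with *Akh* at 70.7 RPKM and *spok* at 120 RPKM, against at most 1.31 RPKM of either gene in LG replicates 2 and 3. The summed RPKM of the ring gland genes was 4.08, 6.49 and 6.72 in AD, against 347, 2.39 and 1.27 in LG. Genes of trachea and cuticle summed to 6.34, 10.01 and 4.08 RPKM in AD, against 38.3, 250.2 and 302 RPKM in LG, so that they were highest in LG replicates 2 and 3. Genes of the adult fat body summed to 10154, 11878 and 7505 RPKM in AD, against 69.7, 5.25 and 2.59 RPKM in LG, and nearly all of the AD sum came from the yolk protein genes *Yp1*, *Yp2* and *Yp3*, while *Obp44a* of the same list had 0.308, 0.307 and 0.281 RPKM in AD, against 36.9, 2.15 and 1.44 RPKM in LG (adjusted *p* = 0.0708). *roX1*, an RNA of the dosage compensation complex of males, had 7.45, 8.23 and 8.57 RPKM in AD, against 21.8, 0.362 and 0.526 RPKM in LG, so that LG replicate 1 stood apart here too, while the other such RNA, *roX2*, did not exceed 1.96 RPKM in any sample. The part of these other tissues, and of LG replicate 1, in the results below was not tested.

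**Figure D1:**
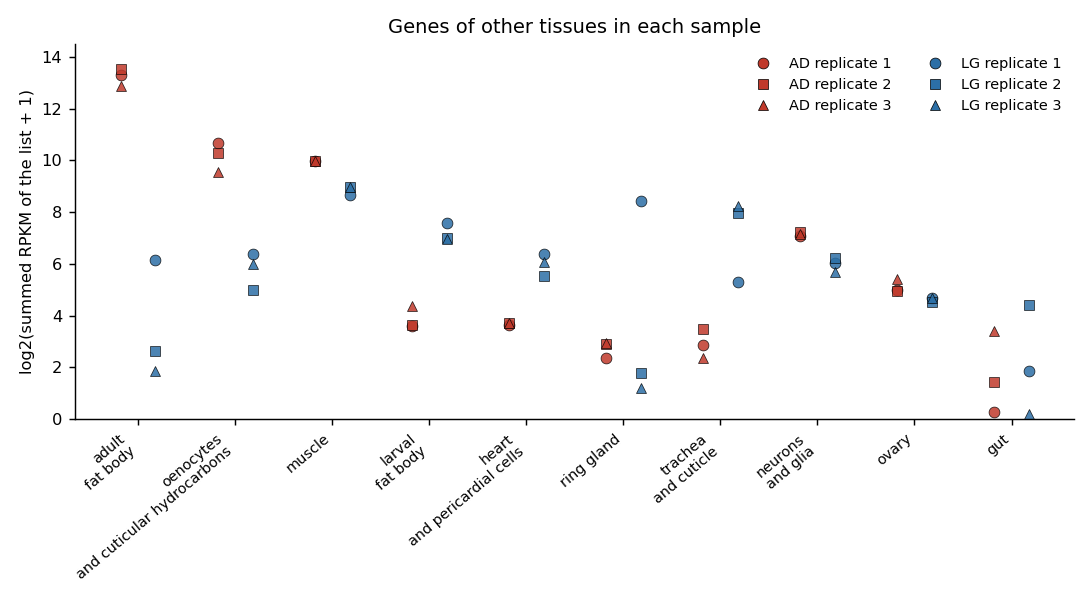
Summed RPKM of 10 lists of genes of other tissues, as log2(sum + 1), in the 3 AD samples (red, left in each pair) and the 3 LG samples (blue, right), with a symbol for each replicate. Genes of the ring gland stood at 347 RPKM in LG replicate 1 alone, and genes of the adult fat body at 7505 to 11878 RPKM in AD.

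Of the 7748 genes, 1553 were higher (20%) and 805 were lower (10.4%) in AD, or 30.4% in both directions, at an adjusted *p* below 0.01 and a fold change above 2, using limma on log2(RPKM + 1) with Benjamini-Hochberg adjustment over all genes tested. A fold change on this scale understates the change of genes near RPKM 1. Another 335 genes passed the test with a smaller change, 125 of them higher and 210 lower, and 5055 genes did not pass it. The AD values were all above the LG values for 2523 genes (32.6%) and all below them for 1994 genes (25.7%), and every gene called was among these. More than 8-fold changes were called for 358 genes that were higher and 106 that were lower. All 3 LG samples were at 0 for 150 of the higher genes, and all 3 AD samples were at 0 for 30 of the lower genes. A gene at 0 in 1 group passed the filter only if all 3 values of the other group exceeded RPKM 1. Its direction and lack of overlap were thus fixed by the filter. Most calls did not separate presence from absence, since 51.4% of the higher genes exceeded RPKM 1 in every LG sample and 67.5% of the lower genes did so in every AD sample. The median log2 fold change was 2.03 among the higher genes, -1.56 among the lower genes and 0.07 over all genes tested. When the samples were scaled to the total of the recovered reads instead, the median over all genes moved to -0.14 and the calls to 1292 higher and 1168 lower, and to a median of -0.21 with 1226 higher and 1324 lower genes when only reads outside rRNA genes set the scale. Without LG replicate 3, the deepest library, 490 genes were lower.

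**Figure D2:**
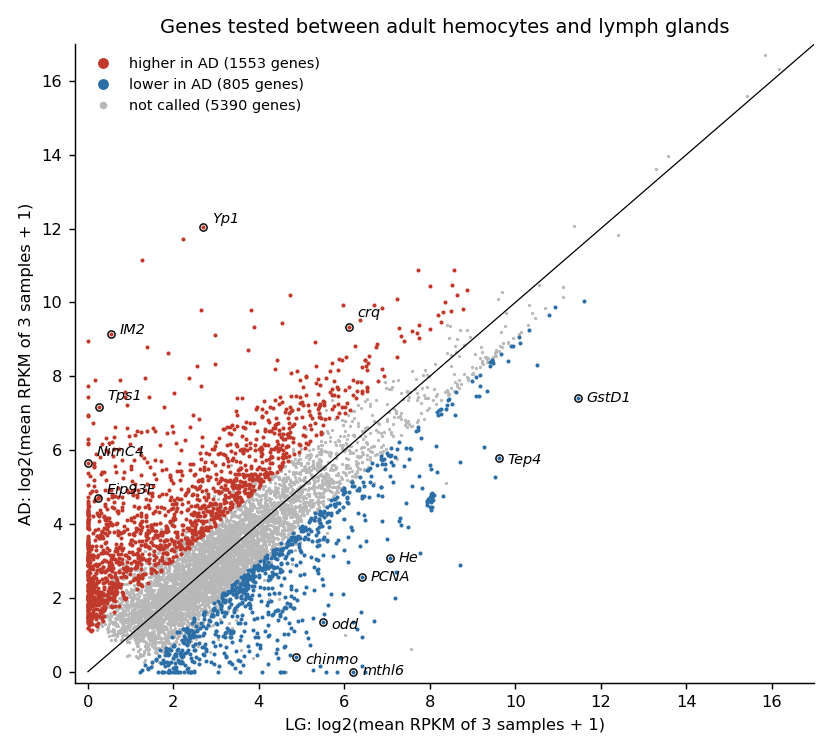
Mean expression of the 7748 genes tested, with AD on the vertical and LG on the horizontal axis, both as log2(mean RPKM of 3 samples + 1), the line marking equal values and 13 genes labelled. The 1553 genes called higher in AD (red) lie above the line and the 805 called lower (blue) below it.

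The 15 largest rises held the yolk protein genes, followed by the uncharacterized gene *CG6503*, which had the smallest adjusted *p* (4.12e-07) and 511, 577 and 401 RPKM in AD, against 0 RPKM in all 3 LG samples. The immune peptide gene *IM2* and the scavenger receptor gene *ninaD* were also among them, with log2 fold changes of 8.73 ± 0.33 and 7.35 ± 0.42. *CG5080* (FBgn0031313, 2L, 1160290 to 1163886, minus strand) had 431, 509.9 and 382 RPKM in AD, against 4.48, 0 and 0.338 RPKM in LG (log2 fold change 7.82 ± 0.57 (SE), adjusted *p* = 3.12e-05). *CG4461*, for which RefSeq lists the synonym Hsp20, had 222, 235 and 183 RPKM in AD, against 0 RPKM in all 3 LG samples, which was at least 186-fold higher when 3 reads per library were taken as the limit of detection in LG. *CG4716* had 317, 199.6 and 203 RPKM in AD, against 0, 0 and 0.386 RPKM in LG. These 3 genes were at 4.48 RPKM or below in every LG sample and at 183 RPKM or above in every AD sample. The smallest adjusted *p* among them belonged to *CG4461* (4.53e-07), close to that of *CG3662* (880.4 ± 78.1 RPKM in AD, against 13.1 ± 1.49 RPKM in LG; adjusted *p* = 5.28e-07), which unlike them was well above 0 in LG. *Obp83cd*, an odorant binding protein gene, and *CG10680* were at 78.2 and 70.8 RPKM on average in AD, against 0 RPKM in all 3 LG samples.

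Among the 15 largest falls, 6 genes carry synonyms in RefSeq that name serine proteases (SP) or serine protease homologs (SPH), families that include the activators of Toll signaling and of melanization. The smallest adjusted *p* of a fall was that of *mthl6*, a gene of the Methuselah receptor family, with 0 RPKM in all 3 AD samples, against 68.4, 61.1 and 90.01 RPKM in LG (adjusted *p* = 1.89e-06), at least 119-fold lower in AD. Of the proteases, *CG31827* (FBgn0051827, 2L, 15705171 to 15706220, plus strand) had 0 RPKM in all 3 AD samples, against 127, 35.1 and 102 RPKM in LG, at least 84.2-fold lower in AD. *CG18478*, which lies 33947 bases away and shares the synonym SPH207 with it, had 0, 0.348 and 0 RPKM in AD, against 125, 29.9 and 96.3 RPKM in LG, and reads of such related neighbours may have been split between them. *CG30283* had 1.21, 2.41 and 1.10 RPKM in AD, against 112, 79.1 and 118 RPKM in LG (log2 fold change -5.35 ± 0.25 (SE), adjusted *p* = 5.16e-06). All LG values of these 4 genes exceeded all AD values by more than 10-fold. The other 3 protease genes averaged 0.0356 RPKM in AD and 37.6 RPKM in LG (*CG4793*), 0.117 and 42.0 RPKM (*CG33461*), and 1.55 and 72.6 RPKM (*CG33459*).

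Because these genes stood out, all genes with an SP or SPH synonym were counted, a set chosen after the values were seen. Of 264 such genes in the file 57 were tested, and 21 were higher (36.8%) and 16 lower (28.1%), against 20% and 10.4% of all genes, and their median log2 fold change was 0.24, beside 0.07 for all genes. The 16 lower genes include the 6 large falls that prompted the count, so that the lower share is not independent of the choice of the set. Several higher genes, such as *SPE*, *CG8586* and *CG9649*, were at 0 in all 3 LG samples, and *CG31827* and *CG33462* in all 3 AD samples. The filter fixed the direction of these genes, so that neither share is comparable with that over all genes. The genes that rose included members of the cascade that activates the Toll ligand Spätzle. The protease *modSP*, at the head of the cascade, had 32.3, 30.9 and 37.0 RPKM in AD, against 3.29, 1.30 and 4.30 RPKM in LG (log2 fold change 3.20 ± 0.31 (SE), adjusted *p* = 0.000120). *psh*, which senses microbial proteases, averaged 11.4 ± 0.907 RPKM in AD, against 0.192 ± 0.277 RPKM in LG, and its paralog *Hayan*, which also acts in melanization, 4.15 ± 1.02 RPKM in AD, against 0.0692 ± 0.0690 RPKM in LG. *SPE*, the enzyme that cleaves Spätzle, averaged 10.3 ± 1.70 RPKM in AD, against 0 RPKM in all 3 LG samples. In each of these 4 genes the AD samples lay above the LG samples, which for *SPE* was fixed by the filter. The Spätzle gene itself moved the other way, since *spz* had 28.4, 36.5 and 29.8 RPKM in AD, against 241, 127 and 200.2 RPKM in LG (log2 fold change -2.5 ± 0.24 (SE), adjusted *p* = 0.000114). Genes known only by a CG number were found in both directions. The largest rises of the set were those of *CG8738* (log2 fold change 4.42 ± 0.25) and *CG8586* (4.27 ± 0.22). Falls included *CG33465* (43.7 ± 5.34 RPKM in AD, against 258 ± 44.8 RPKM in LG), *CG33460* (22.8 ± 5.36 RPKM in AD, against 174 ± 42.2 RPKM in LG), *CG10764* (0.638 ± 0.313 RPKM in AD, against 35.4 ± 2.501 RPKM in LG) and *CG43124* (1.76 ± 0.527 RPKM in AD, against 37.7 ± 5.14 RPKM in LG).

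Gene lists written from general knowledge of Drosophila genes were used to describe the rest, each by the number of its tested members that were higher or lower and by its median log2 fold change, to be read against 20% higher, 10.4% lower and 0.07 over all genes tested.

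**Figure D3:**
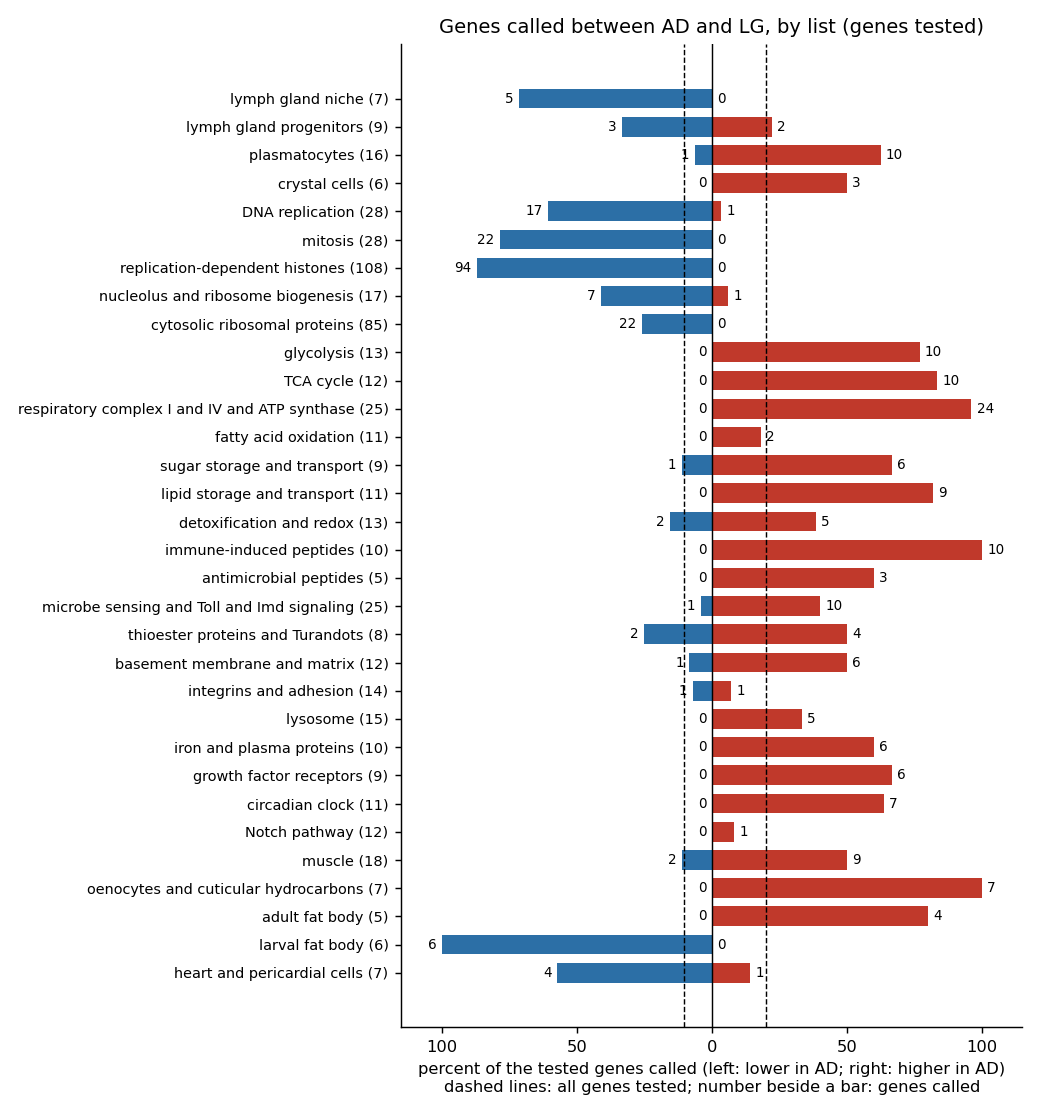
Percent of the tested genes of 32 lists called higher in AD (right, red) or lower in AD (left, blue), with the number called beside each bar, the number tested in parentheses and dashed lines at 20% and 10.4% for all genes tested. Of the respiratory genes 24 of 25 were higher, and of the replication-dependent histone genes 94 of 108 were lower.

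Genes of the lymph gland niche and of its progenitors did not move as 1 group. *Tep4*, a thioester protein gene used as a progenitor marker (FBgn0041180, 2L, 19548507 to 19556451, plus strand), had 50.9, 51.7 and 58.8 RPKM in AD, against 815, 839 and 695 RPKM in LG (log2 fold change -3.84 ± 0.13 (SE), adjusted *p* = 2.10e-06). *odd*, a zinc finger transcription factor gene expressed in the embryonic lymph gland (FBgn0002985, 2L, 3604224 to 3606756, minus strand), had 0.988, 2.68 and 1.03 RPKM in AD, against 44.1, 42.0 and 46.3 RPKM in LG (log2 fold change -4.20 ± 0.27 (SE), adjusted *p* = 1.63e-05). For both genes the LG replicates lay close together and more than 10-fold above every AD replicate. Of the 7 niche genes tested, 5 were lower and none higher in AD (median -1.30), and the AD values of 6 were all below the LG values. The ligand gene *Ser* went the other way, with all AD values above the LG values and a log2 fold change of 1.30 that was not called. The heparan sulfate proteoglycan gene *dlp* averaged 1.84 ± 0.309 RPKM in AD, against 8.03 ± 2.33 RPKM in LG, and *kn*, which encodes the EBF transcription factor Collier that specifies the niche, 2.13 ± 0.701 RPKM in AD, against 7.05 ± 1.40 RPKM in LG. The Hox gene *Antp*, also active in the niche, had 1.76, 1.37 and 1.49 RPKM in AD, against 3.15, 3.34 and 2.90 RPKM in LG, with no overlap between the groups but adjusted *p* = 0.0294. *hh*, the niche's Hedgehog ligand, was at most 0.141 RPKM in any sample. *odd* and *tup*, which were counted on the niche list, are genes of the lymph gland and heart and not markers of the niche. The count of 5 fell to 2 without AD replicate 1, AD replicate 3 or LG replicate 3, and to 3 without AD replicate 2 or LG replicate 1. With a pseudocount of 5 it fell to 1, which was *odd*. *odd* was called each time, and *kn* was not called with that pseudocount or without AD replicate 1, AD replicate 3 or LG replicate 3.

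Of the 9 progenitor genes tested, 3 were lower and 2 higher (median -0.11). *et*, a receptor that blocks JAK/STAT signaling, had 39.6, 40.7 and 35.8 RPKM in AD, against 131, 117 and 153.5 RPKM in LG (log2 fold change -1.76 ± 0.15 (SE), adjusted *p* = 5.61e-05). The JAK/STAT receptor gene *dome*, whose reporter marks progenitors, had 5.16, 8.41 and 5.52 RPKM in AD, against 8.52, 6.09 and 5.995 RPKM in LG, and *Stat92E*, the transcription factor of the pathway, 107, 110 and 98.1 RPKM in AD, against 116, 104 and 108 RPKM in LG. For both the groups overlapped, with adjusted *p* = 0.750 and 0.719. The Hedgehog pathway was split, since the signal transducer *smo* fell (-1.31 ± 0.24, adjusted *p* = 0.00287) while its transcription factor *ci* rose. *ci* had 35.0, 36.6 and 32.1 RPKM in AD, against 4.98, 9.64 and 10.9 RPKM in LG (log2 fold change 1.96 ± 0.27 (SE), adjusted *p* = 0.000645). The Wnt receptor gene *fz2* was likewise higher, at 9.85 ± 1.22 RPKM in AD, against 2.201 ± 0.840 RPKM in LG (adjusted *p* = 0.00105). The call of *smo* was lost without AD replicate 2, AD replicate 3, LG replicate 1 or LG replicate 3. The adhesion gene *shg* (E-cadherin) averaged 3.32 ± 2.53 RPKM in AD, against 2.18 ± 0.922 RPKM in LG, with overlapping groups.

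Plasmatocyte genes rose more often than they fell, with 10 of 16 higher and 1 lower (median 1.41). The scavenger receptor gene *crq* (FBgn0015924, 2L, 448254 to 453024, minus strand) had 637, 655 and 656 RPKM in AD, against 29.2, 109 and 65.3 RPKM in LG (log2 fold change 3.43 ± 0.41 (SE), adjusted *p* = 0.000330). *NimC4*, a Nimrod receptor for apoptotic cells (FBgn0260011, 2L, 14047582 to 14048863, plus strand), had 42.6, 60.4 and 45.0 RPKM in AD, against 0 RPKM in all 3 LG samples, at least 63.9-fold higher. *drpr*, the Draper receptor that also binds apoptotic cells, had 143, 122 and 144 RPKM in AD, against 8.31, 22.5 and 11.8 RPKM in LG (log2 fold change 3.28 ± 0.31 (SE), adjusted *p* = 0.000111). In all of them the AD replicates were tightly grouped, and in *crq* and *drpr* LG replicate 2 was the highest of the LG samples. The phagocytosis receptor gene *NimC1* averaged 141 ± 16.4 RPKM in AD, against 19.3 ± 7.82 RPKM in LG, and the secreted Nimrod gene *NimB5* 136 ± 3.21 RPKM in AD, against 26.4 ± 4.17 RPKM in LG.

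The other plasmatocyte genes included 1 large fall and genes that were not called. *He*, a membrane glycoprotein gene of larval hemocytes (FBgn0028430, 2L, 13972096 to 13972947, minus strand), was the only one lower, with 8.86, 5.41 and 8.08 RPKM in AD, against 155.6, 102 and 143 RPKM in LG (log2 fold change -3.99 ± 0.23 (SE), adjusted *p* = 1.13e-05). It shares 78 bases of exon with *NimB5* on the opposite strand, and *crq* shares 448 bases with its neighbour *ex*. Whether the counts used strand is not stated, so that reads of such overlaps cannot be assigned. The phagocytosis receptor gene *eater* had 147, 157 and 155 RPKM in AD, against 121, 356 and 185 RPKM in LG, and the clotting factor gene *Hml* 979.5, 1269 and 1012 RPKM in AD, against 834, 729 and 772 RPKM in LG. For *eater* the groups overlapped (adjusted *p* = 0.394), and for *Hml* they did not (log2 fold change 0.47 ± 0.15, adjusted *p* = 0.0301). The peroxidasin gene *Pxn* passed the test with a fall below 2-fold (-0.79 ± 0.13, adjusted *p* = 0.00209), and it was called lower when the samples were scaled to the total reads or to those outside rRNA genes.

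**Figure D4:**
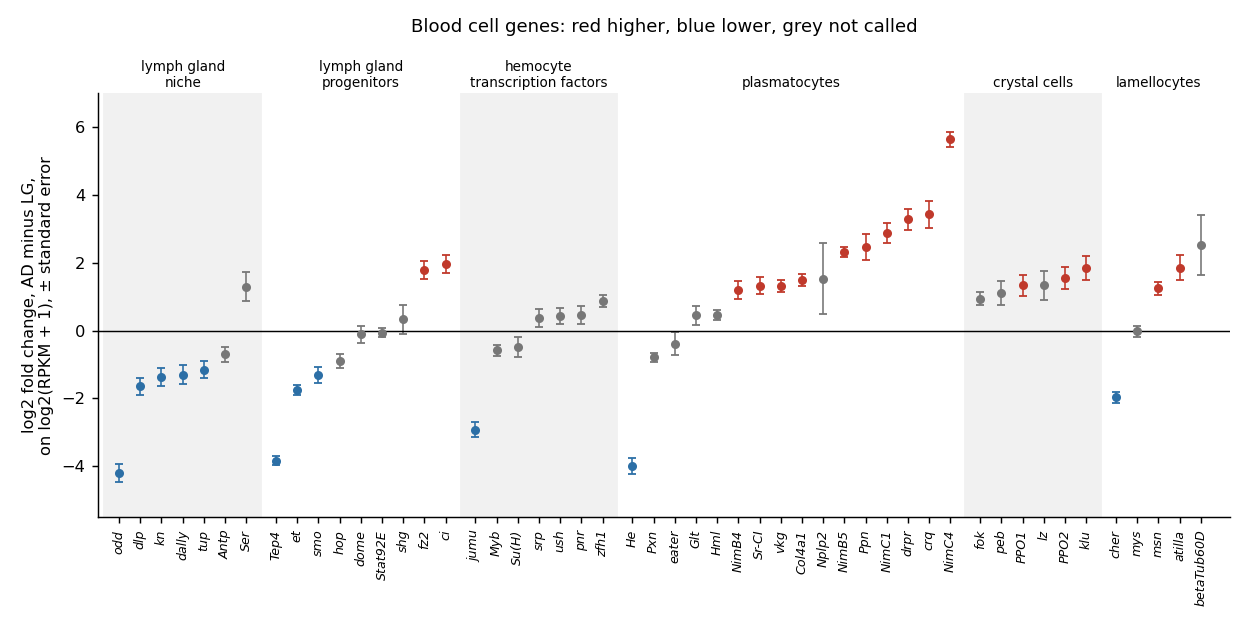
Log2 fold change, AD minus LG, of blood cell genes on log2(RPKM + 1) with its standard error, in red for genes called higher, blue for genes called lower and grey for genes not called, grouped by list. *NimC4* at 5.64 and *odd* at -4.20 mark the ends of the range.

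All 6 crystal cell genes had AD values above all LG values, and 3 of them were called (median 1.34). The prophenoloxidase genes of crystal cells had similar values. *PPO1* had 699.8, 691 and 751 RPKM in AD, against 496, 227 and 200.4 RPKM in LG. *PPO2* had 826, 865 and 887 RPKM in AD, against 518, 226 and 211 RPKM in LG. LG replicate 1 was the highest of the LG samples for both, and also for *lz*, the Runx factor that specifies crystal cells, which had 9.83, 6.49 and 8.71 RPKM in AD, against 6.43, 1.62 and 1.5 RPKM in LG (adjusted *p* = 0.0338). The calls depended on single libraries, with none of the 6 genes called without AD replicate 1, AD replicate 2 or LG replicate 3, 1 without AD replicate 3, 2 without LG replicate 2, and all 6 without LG replicate 1. Scaling to the total reads gave 1 call.

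Lamellocyte genes went in different directions, with 2 of 5 tested genes higher and 1 lower (median 1.25). The largest rise was that of the beta tubulin gene *betaTub60D* (log2 fold change 2.53). The filamin gene *cher* had 6.11, 6.56 and 6.70 RPKM in AD, against 29.9, 29.5 and 24.9 RPKM in LG (log2 fold change -1.96 ± 0.16 (SE), adjusted *p* = 5.54e-05), while the integrin gene *mys* had 64.3, 63.4 and 75.2 RPKM in AD, against 57.6, 82.7 and 67.0 RPKM in LG, with overlapping groups. *atilla*, a surface marker of lamellocytes, averaged 6.12 ± 2.86 RPKM in AD, against 0.862 ± 0.298 RPKM in LG, and its call was lost without AD replicate 1, AD replicate 2, LG replicate 1 or LG replicate 3. The lamellocyte phenoloxidase gene *PPO3* was at most 0.446 RPKM in any sample and was not tested.

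Of 7 transcription factor genes of hemocytes, only the forkhead factor gene *jumu* was called, with 2.14, 2.40 and 2.82 RPKM in AD, against 29.0, 19.2 and 28.6 RPKM in LG (log2 fold change -2.93 ± 0.22 (SE), adjusted *p* = 3.84e-05). The GATA factor gene *srp*, needed for all hemocytes, had 126, 125 and 116 RPKM in AD, against 71.3, 150.4 and 78.0 RPKM in LG, and its cofactor *ush* 36.0, 34.3 and 32.0 RPKM in AD, against 21.5, 35.8 and 20.2 RPKM in LG. In both, LG replicate 2 lay among or above the AD values, and the other LG replicates lay below them. The repressor gene *zfh1* was higher in every AD sample, at 132 ± 7.71 RPKM in AD, against 72.4 ± 17.1 RPKM in LG, with a change below 2-fold (log2 fold change 0.88 ± 0.18) that passed the threshold only without LG replicate 2 or with array weights.

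The genes of cell division were low in AD. *PCNA*, the sliding clamp of DNA polymerase (FBgn0005655, 2R, 20261754 to 20262883, minus strand), had 0.309, 5.87 and 8.47 RPKM in AD, against 96.0, 54.9 and 103 RPKM in LG (log2 fold change -4.23 ± 0.68 (SE), adjusted *p* = 0.00160). *Cdk1*, the kinase that drives entry into mitosis, had 0, 3.36 and 0 RPKM in AD, against 38.3, 22.3 and 40.1 RPKM in LG (log2 fold change -4.36 ± 0.57 (SE), adjusted *p* = 0.000571). No AD value of either gene came within 6-fold of an LG value. Of 28 replication genes tested, 17 were lower and 1 higher (median -1.64), and the AD values of 24 were all below the LG values. Both subunits of ribonucleotide reductase fell, *RnrL* with 1.15 ± 0.330 RPKM in AD, against 16.8 ± 4.25 RPKM in LG and *RnrS* with 3.34 ± 0.442 RPKM in AD, against 32.4 ± 5.83 RPKM in LG. The replicative helicase subunit *Mcm5* averaged 0.947 ± 0.703 RPKM in AD, against 17.6 ± 8.37 RPKM in LG, and the catalytic subunit of DNA polymerase alpha, *DNApol-alpha180*, 1.13 ± 0.778 RPKM in AD, against 11.6 ± 0.985 RPKM in LG. The 1 gene that was higher, *Psf2* of the GINS complex, averaged 13.4 ± 2.97 RPKM in AD, against 4.15 ± 1.75 RPKM in LG, and its call was lost without any of the AD replicates or LG replicate 1. The count of lower replication genes was 9 without LG replicate 1 or LG replicate 3 and 10 without AD replicate 1.

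Of 28 mitosis genes tested, 22 were lower and none higher (median -2.07), and the AD values of 27 were all below the LG values. *fzy*, the Cdc20 activator of the anaphase promoting complex, had 0.498, 0.829 and 0.303 RPKM in AD, against 26.6, 15.05 and 19.4 RPKM in LG (log2 fold change -3.77 ± 0.27 (SE), adjusted *p* = 3.01e-05). The kinesin gene *Klp61F*, the anillin gene *scra* and the kinase gene *polo* averaged 0.0805, 0.351 and 1.62 RPKM in AD, against 9.82, 11.6 and 20.7 RPKM in LG. These AD means stand for few reads, since 3 reads on 1 kilobase of exon stood for 0.907 to 0.993 RPKM in an AD sample. Topoisomerase II was less reduced, with *Top2* at 6.19, 7.70 and 7.84 RPKM in AD, against 45.4, 29.7 and 43.4 RPKM in LG. The Cdc25 phosphatase gene *stg*, whose product triggers mitosis, had 17.8, 17.1 and 15.5 RPKM in AD, against 66.6, 18.4 and 39.0 RPKM in LG. LG replicate 2 lay next to the AD samples, and *stg* was called only without that replicate or with array weights (adjusted *p* = 0.0572 with all samples).

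Replication-dependent histone genes, which are transcribed in S phase, gave 94 lower genes of 108 tested and none higher (median -1.91), and the AD values of 105 were all below the LG values. These genes are near-identical copies in a cluster on 2L, so that reads are shared among copies and single genes are uncertain. By class, all 20 *His2A* and all 22 *His4* genes were lower, with median log2 fold changes of -3.37 and -3.01. The medians were smaller for *His1* (23 of 23 lower, -1.58), *His3* (16 of 21, -1.62) and *His2B* (13 of 22, -1.41).

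Nucleolar genes fell less. Of 17 genes of the nucleolus and ribosome biogenesis, 7 were lower and 1 higher (median -0.87). *Fib*, the gene of the rRNA methylase fibrillarin, had 10.1, 10.3 and 12.4 RPKM in AD, against 55.9, 28.3 and 57.4 RPKM in LG (log2 fold change -1.96 ± 0.28 (SE), adjusted *p* = 0.000841), and *NHP2*, a box H/ACA RNP protein gene, 22.6 ± 4.51 RPKM in AD, against 57.9 ± 10.7 RPKM in LG (adjusted *p* = 0.00112). For both the groups did not overlap. The gene that rose, *pes*, encodes Peste, a CD36-like scavenger receptor and no nucleolar protein, so that its place on this list is an error of naming. The call of *pes* was lost without any of the AD replicates or LG replicate 3. The count of 7 was 2 without AD replicate 1 or AD replicate 3, 3 without LG replicate 3 and 4 without AD replicate 2 or LG replicate 1.

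Of 85 genes of cytosolic ribosomal proteins, 22 were lower and none higher, although the AD values of 81 were all below the LG values (median -0.90). The changes ranged from -1.58 for *RpL41* to 0.33 for *RpL24-like*. *RpL41* had 977, 1108 and 1050.2 RPKM in AD, against 2758, 3319 and 3339 RPKM in LG (log2 fold change -1.58 ± 0.14 (SE), adjusted *p* = 8.82e-05). *RpS3*, which was among the most expressed genes of LG, had 1074, 1288 and 1058 RPKM in AD, against 1717, 2789 and 2131 RPKM in LG (log2 fold change -0.93 ± 0.20). The translation elongation factor gene *Ef1alpha48D*, the highest of LG outside rRNA, had 3544, 3835 and 3525 RPKM in AD, against 4595, 6141 and 5475 RPKM in LG, and *eIF-5A* 801, 888 and 728 RPKM in AD, against 1784, 1630.1 and 1919.5 RPKM in LG. Only *eIF-5A* among the last 3 was called (adjusted *p* = 0.000404). The count of lower ribosomal protein genes was 75 when scaled to the total reads, 79 when scaled to reads outside rRNA genes, 50 without LG replicate 1, 43 without AD replicate 2, and between 11 and 13 without AD replicate 1, AD replicate 3 or LG replicate 2.

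Enzymes of energy metabolism were higher in AD across several pathways. In glycolysis, which turns glucose into pyruvate, 10 of 13 genes were higher and none lower (median 2.04). The hexokinase gene *Hex-C* (FBgn0001187, 2R, 15218837 to 15220329, minus strand) had 106, 90.8 and 90.1 RPKM in AD, against 0.449, 4.20 and 1.04 RPKM in LG (log2 fold change 5.28 ± 0.43 (SE), adjusted *p* = 5.07e-05). Aldolase, *Ald*, had 524, 409.6 and 512 RPKM in AD, against 55.7, 25.04 and 34.8 RPKM in LG (log2 fold change 3.68 ± 0.27 (SE), adjusted *p* = 3.36e-05), and pyruvate kinase, *PyK*, 142, 150.5 and 134 RPKM in AD, against 32.3, 18.8 and 25.7 RPKM in LG. The AD samples of these genes were 4-fold or more above the highest LG sample. The 3 genes not called were *Tpi* (log2 fold change 0.79), *Gapdh2* (0.73) and *ImpL3* (0.46), the last of which encodes lactate dehydrogenase and had overlapping groups.

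In the TCA cycle, which oxidizes acetyl-CoA in mitochondria, 10 of 12 genes were higher and none lower (median 2.46), and 10 were higher under every alternative and without any single sample. Citrate synthase, *kdn*, had 269, 269 and 225 RPKM in AD, against 44.1, 13.5 and 42.2 RPKM in LG (log2 fold change 3.06 ± 0.41 (SE), adjusted *p* = 0.000598). Aconitase, *Acon*, had 244, 226 and 245 RPKM in AD, against 36.3, 22.9 and 32.1 RPKM in LG (log2 fold change 2.95 ± 0.18 (SE), adjusted *p* = 1.45e-05). LG replicate 2 was the lowest of the LG samples for both. The 4 subunits of succinate dehydrogenase moved within a narrow range, with log2 fold changes of 2.44 ± 0.29 for *SdhA*, 2.5 ± 0.23 for *SdhB*, 2.47 ± 0.21 for *SdhC* and 2.35 ± 0.19 for *SdhD*. Fumarase, *l(1)G0255*, stayed apart, with 46.8, 42.1 and 40.3 RPKM in AD, against 33.9, 31.0 and 40.6 RPKM in LG and adjusted *p* = 0.156.

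Of 25 nuclear genes of respiratory complexes I and IV, ATP synthase and cytochrome c, 24 were higher (median 1.94). *Cyt-c-p*, the cytochrome c of somatic cells, had 923, 1043 and 984 RPKM in AD, against 88.8, 30.5 and 64.7 RPKM in LG (log2 fold change 4.11 ± 0.34 (SE), adjusted *p* = 5.75e-05), the largest change of the list. *ATPsynbeta*, the catalytic subunit of ATP synthase and 1 of the 10 most expressed genes of AD outside rRNA, had 1545, 1381 and 1342 RPKM in AD, against 455, 260 and 387 RPKM in LG. *ND-51* of complex I averaged 174 ± 15.6 RPKM in AD, against 26.1 ± 3.88 RPKM in LG, and *COX5B* of complex IV 226 ± 12.3 RPKM in AD, against 39.2 ± 8.08 RPKM in LG. The exception was *COX7A*, with 64.1, 69.8 and 56.8 RPKM in AD, against 80.3, 75.8 and 71.5 RPKM in LG (log2 fold change -0.25 ± 0.13 (SE), adjusted *p* = 0.156), whose AD values lay just below the LG values. By contrast, fatty acid oxidation gave 2 of 11 genes higher and none lower (median 0.13). No gene of this list was called, and its median turned negative, when the samples were scaled to the total reads (-0.12), to reads outside rRNA genes (-0.21) or by quantiles (-0.13). Without any 1 of the AD replicates or LG replicate 3 the count was 1.

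Storage and transport of sugar and lipid also differed. *Tps1*, the enzyme that makes the blood sugar trehalose (FBgn0027560, 2L, 4388327 to 4392778, plus strand), had 157, 151 and 119 RPKM in AD, against 0.230, 0.226 and 0.152 RPKM in LG (log2 fold change 6.89 ± 0.18 (SE), adjusted *p* = 7.06e-07). The trehalose transporter gene *Tret1-1* had 49.0, 31.7 and 48.8 RPKM in AD, against 4.42, 1.86 and 0.754 RPKM in LG (log2 fold change 3.85 ± 0.40 (SE), adjusted *p* = 0.000174), and glycogen phosphorylase, *GlyP*, 93.1, 94.2 and 95.2 RPKM in AD, against 9.97, 5.98 and 8.38 RPKM in LG. In *Tps1* the LG samples held almost no reads, whereas *GlyP* was measured in all 6 samples. *Treh*, which cleaves trehalose, was also higher (31.2 ± 2.31 RPKM in AD, against 10.02 ± 3.13 RPKM in LG), and so were *AGBE* (19.3 ± 2.05 RPKM in AD, against 2.65 ± 1.12 RPKM in LG) and *UGP* (70.1 ± 7.90 RPKM in AD, against 8.61 ± 0.516 RPKM in LG), which act in glycogen synthesis, *UGP* sharing 602 bases of exon with *PGRP-LF* on the opposite strand, while glycogen synthase itself, *GlyS*, averaged 31.1 ± 4.25 RPKM in AD, against 23.3 ± 2.23 RPKM in LG (adjusted *p* = 0.0767). In all, 6 of 9 tested genes of the sugar list were higher and 1, the transporter gene *sut1*, was lower, a call that was lost without any of the AD replicates or LG replicates 1 or 3.

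Of 11 lipid genes, 9 were higher and none lower (median 2.75). *apolpp*, the apolipoprotein of circulating lipoprotein particles and a product of the fat body, had 676, 521 and 474 RPKM in AD, against 10.1, 4.796 and 5.54 RPKM in LG (log2 fold change 6.20 ± 0.26 (SE), adjusted *p* = 3.90e-06). The lipophorin receptor gene *LpR2* had 318, 304 and 306 RPKM in AD, against 4.93, 6.35 and 3.32 RPKM in LG (log2 fold change 5.76 ± 0.20 (SE), adjusted *p* = 2.15e-06). Of the genes that act on lipid droplets, the perilipin gene *Lsd-1* averaged 72.6 ± 6.79 RPKM in AD, against 3.20 ± 1.40 RPKM in LG and the lipase gene *bmm* 41.9 ± 0.345 RPKM in AD, against 3.49 ± 1.93 RPKM in LG, while the second perilipin, *Lsd-2*, averaged 151 ± 8.89 RPKM in AD, against 95.7 ± 43.4 RPKM in LG with a call only without LG replicate 2. *ACC*, which makes malonyl-CoA for fatty acid synthesis, averaged 58.6 ± 5.79 RPKM in AD, against 7.27 ± 4.07 RPKM in LG. Genes of the adult fat body moved in the same samples (7505 to 11878 RPKM in AD, against 2.59 to 69.7 RPKM in LG), and their part in the lipid and sugar values was not tested.

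Genes of secreted immune peptides were higher in AD or not called. All 10 immune-induced peptide genes tested were higher (median 3.79), and 9 of them were at 0 in all 3 LG samples. A gene at 0 in all 3 LG samples was tested only where all 3 AD values exceeded RPKM 1. The direction of these 9 genes, and of *Mtk* and *DptB* below, was thus fixed by the filter, and their share higher is not comparable with that over all genes. *IM14* had 141, 126 and 102 RPKM in AD, against 0 RPKM in all 3 LG samples, at least 27.7-fold higher, and *IM3* had 31.9, 33.1 and 31.8 RPKM in AD, against 0 RPKM in all 3 LG samples. *CG15067* had 46.1, 40.9 and 34.9 RPKM in AD, against 0 RPKM in all 3 LG samples. Of the antimicrobial peptide genes, which are induced by infection, 5 of 13 were expressed enough to be tested and 3 were higher. *Mtk* (Metchnikowin) had 27.2, 16.04 and 18.04 RPKM in AD, against 0 RPKM in all 3 LG samples (log2 fold change 4.39 ± 0.26 (SE), adjusted *p* = 1.17e-05), and *CecC* 6.01, 13.7 and 23.5 RPKM in AD, against 0, 0.855 and 0.287 RPKM in LG. The third was *DptB* (Diptericin B), with 4.42, 2.21 and 2.02 RPKM in AD, against 0 RPKM in all 3 LG samples (log2 fold change 1.91 ± 0.29 (SE), adjusted *p* = 0.00124). The lower AD values of this short gene were near the limit of detection, and its call was lost with a pseudocount of 5. *AttD* had 12.1, 2.67 and 25.3 RPKM in AD, against 0, 1.78 and 0 RPKM in LG, with no overlap but adjusted *p* = 0.0112 (called without AD replicate 2 or LG replicate 2), and the last gene tested, *AttB*, had overlapping groups (adjusted *p* = 0.476). The 8 genes not tested were above RPKM 1 in fewer than 3 samples, such as *Def*, which was above 0 in 1 AD sample (4.98 RPKM) and 1 LG sample (0.277 RPKM).

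Of 25 genes of microbe sensing and of the Toll and Imd pathways, 10 were higher and 1 lower (median 0.63). *nec*, a serpin that restrains the Toll cascade, had 36.9, 33.6 and 36.1 RPKM in AD, against 1.03, 0 and 0 RPKM in LG (log2 fold change 4.85 ± 0.31 (SE), adjusted *p* = 1.60e-05), and the glucan sensor gene *GNBP3* 12.5, 14.9 and 15.4 RPKM in AD, against 0.328, 0.216 and 1.88 RPKM in LG. *Rel*, the NF-kappaB factor of the Imd pathway, had 94.4, 111 and 94.2 RPKM in AD, against 17.8, 41.1 and 20.9 RPKM in LG (log2 fold change 1.96 ± 0.29 (SE), adjusted *p* = 0.00101). The AD samples were above the LG samples for all 3. The 1 lower gene was *spz*, and without AD replicate 3, or with the samples scaled to reads, 2 or 3 genes of the list were lower. By contrast, the Toll receptor gene *Tl* averaged 14.0 ± 2.04 RPKM in AD, against 24.5 ± 5.27 RPKM in LG (log2 fold change -0.76 ± 0.21, adjusted *p* = 0.0175) and the Imd adapter gene *imd* 11.0 ± 1.79 RPKM in AD, against 7.98 ± 1.56 RPKM in LG (adjusted *p* = 0.137).

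Thioester proteins, relatives of complement factors, and Turandots, secreted stress peptides, gave 4 higher and 2 lower genes of 8 tested. The higher genes were 4 Turandots, and of the thioester protein genes 2 were lower and 2 were not called. *Tep1* had 22.8, 27.5 and 28.4 RPKM in AD, against 289.9, 348 and 309 RPKM in LG (log2 fold change -3.54 ± 0.14 (SE), adjusted *p* = 3.00e-06), a fall of about the size of that of *Tep4*, while *Tep2* averaged 15.6 ± 7.84 RPKM in AD, against 19.0 ± 9.05 RPKM in LG and *Mcr* 7.93 ± 0.460 RPKM in AD, against 7.12 ± 3.31 RPKM in LG, both with overlapping groups. The higher Turandot genes were *TotA*, *TotC*, *TotM* and *TotX*, whereas *TotB* was at most 1.26 RPKM and was not tested. *TotC* and *TotM* were at 0 in all 3 LG samples, so that the filter fixed their direction. The share of higher genes is thus not comparable with that over all genes. *TotA* had 507, 80.5 and 159 RPKM in AD, against 3.47, 4.56 and 4.40 RPKM in LG (log2 fold change 5.20 ± 0.57 (SE), adjusted *p* = 0.000230), and *TotC* 358, 64.3 and 94.7 RPKM in AD, against 0 RPKM in all 3 LG samples. AD replicate 1 was the highest for both by more than 3-fold.

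The extracellular matrix list gave 6 of 12 genes higher and 1 lower. Collagen IV, the main component of basement membrane, was higher in both chains, *Col4a1* with 1248, 1397 and 1232 RPKM in AD, against 361, 556 and 479.7 RPKM in LG and *vkg* with 283, 317 and 273 RPKM in AD, against 88.9, 135 and 129 RPKM in LG. *SPARC*, which binds collagen IV, had 327, 394 and 334 RPKM in AD, against 44.5, 58.3 and 71.4 RPKM in LG (log2 fold change 2.60 ± 0.19 (SE), adjusted *p* = 3.04e-05), and *PH4alphaEFB*, which hydroxylates collagen, 54.4 ± 0.887 RPKM in AD, against 9.50 ± 2.15 RPKM in LG. The collagen XV/XVIII gene *Mp* had 15.9, 17.8 and 13.9 RPKM in AD, against 0.459, 0.1005 and 0.0506 RPKM in LG (log2 fold change 3.82 ± 0.24 (SE), adjusted *p* = 1.51e-05). The laminin genes *LanA*, *LanB1* and *LanB2* were not called. *LanA* averaged 199.9 ± 17.5 RPKM in AD, against 199.8 ± 59.8 RPKM in LG, *LanB1* 172 ± 18.3 RPKM in AD, against 209 ± 46.4 RPKM in LG and *LanB2* 146 ± 8.30 RPKM in AD, against 96.1 ± 17.7 RPKM in LG. Of 14 integrin and adhesion genes, 1 was higher and 1 lower. The integrin alpha gene *scb* had 26.3, 27.5 and 34.1 RPKM in AD, against 0.502, 3.03 and 0.973 RPKM in LG (log2 fold change 3.72 ± 0.36 (SE), adjusted *p* = 0.000119), and the neuroglian gene *Nrg* 6.53, 5.33 and 9.65 RPKM in AD, against 39.2, 39.1 and 43.0 RPKM in LG (log2 fold change -2.38 ± 0.22 (SE), adjusted *p* = 8.48e-05). The beta integrin gene *mys* averaged 67.6 RPKM in AD and 69.1 RPKM in LG.

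Of the lysosomal and autophagy genes, 5 of 15 were higher and none lower. The cathepsin gene *Cp1* had 1080, 963 and 899 RPKM in AD, against 96.6, 124 and 89.2 RPKM in LG (log2 fold change 3.24 ± 0.16 (SE), adjusted *p* = 6.04e-06), and the membrane protein gene *Lamp1* 402, 354 and 373 RPKM in AD, against 94.7, 92.8 and 95.7 RPKM in LG (log2 fold change 1.98 ± 0.12 (SE), adjusted *p* = 1.17e-05). In both, each group spread by less than 1.5-fold. The autophagy receptor gene *ref(2)P* averaged 65.9 ± 4.82 RPKM in AD, against 12.9 ± 1.91 RPKM in LG and *Atg8a*, the gene of a protein of autophagosome membranes, 197 ± 5.87 RPKM in AD, against 64.0 ± 14.9 RPKM in LG, while the V-ATPase subunit *Vha55* averaged 153 ± 3.39 RPKM in AD, against 127 ± 4.32 RPKM in LG (adjusted *p* = 0.0825). Both ferritin subunits, which store iron, rose. Ferritin heavy chain, *Fer1HCH*, had 861, 1024 and 868 RPKM in AD, against 97.8, 150.3 and 105 RPKM in LG. Ferritin light chain, *Fer2LCH*, had 1738, 2101 and 1812 RPKM in AD, against 171, 271 and 187 RPKM in LG. Their log2 fold changes were 2.98 ± 0.18 and 3.19 ± 0.19, and the genes overlap by 118 bases of exon on opposite strands. The metallothionein genes *MtnA* (247 ± 42.3 RPKM in AD, against 46.2 ± 22.1 RPKM in LG) and *MtnB* (15.5 ± 1.84 RPKM in AD, against 2.78 ± 1.42 RPKM in LG) and the transferrin gene *Tsf1* (12.4 ± 4.25 RPKM in AD, against 0.313 ± 0.445 RPKM in LG) were higher as well.

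Cytoskeletal isoforms were lower in 4 of 11 tested genes and higher in 1, or lower in 7 and higher in none when scaled to reads outside rRNA genes. The beta tubulin gene *betaTub56D* had 44.3, 43.2 and 55.9 RPKM in AD, against 290.1, 226 and 249 RPKM in LG (log2 fold change -2.40 ± 0.16 (SE), adjusted *p* = 1.96e-05), and non-muscle myosin heavy chain, *zip*, 50.6, 50.1 and 58.5 RPKM in AD, against 131.5, 257 and 155 RPKM in LG (log2 fold change -1.70 ± 0.24 (SE), adjusted *p* = 0.000870). No AD value reached an LG value in either gene. The general actin gene *Act5C* had 748, 773 and 976 RPKM in AD, against 1170.3, 1618 and 1241 RPKM in LG, a smaller difference (log2 fold change -0.68 ± 0.18, adjusted *p* = 0.0142).

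Of 5 tested genes of temporal identity, which mark developmental time, 1 was higher and 1 was lower in AD, and 3 were not called. *chinmo*, a BTB zinc finger gene that acts before metamorphosis and downstream of JAK/STAT (FBgn0086758, 2L, 1651258 to 1704682, plus strand), had 0.236, 0.393 and 0.335 RPKM in AD, against 34.8, 17.1 and 33.4 RPKM in LG (log2 fold change -4.41 ± 0.30 (SE), adjusted *p* = 2.32e-05). *Eip93F*, an ecdysone-induced factor gene of metamorphosis and adult fate (FBgn0264490, 3R, 21949114 to 22014539, plus strand), had 27.7, 21.3 and 26.9 RPKM in AD, against 0.0396, 0.442 and 0.0611 RPKM in LG (log2 fold change 4.48 ± 0.24 (SE), adjusted *p* = 8.34e-06). The AD and LG values of each gene lay far apart, with *chinmo* at most 0.393 RPKM in AD and *Eip93F* at most 0.442 RPKM in LG. The zinc finger gene *mamo* (log2 fold change 0.69 ± 0.22, adjusted *p* = 0.0312) and the RNA-binding protein genes *Imp* and *Syp*, which time neuroblast fates, were not called. *Imp* averaged 11.5 ± 1.09 RPKM in AD, against 18.6 ± 3.40 RPKM in LG, and *Syp* averaged 45.3 ± 1.55 RPKM in AD, against 92.7 ± 62.8 RPKM in LG, with 165 RPKM in LG replicate 2. The ecdysone receptor gene *EcR* fell (2.95 ± 0.427 RPKM in AD, against 13.02 ± 4.36 RPKM in LG, adjusted *p* = 0.000922), whereas its partner *usp* averaged 16.2 ± 1.33 RPKM in AD, against 12.7 ± 1.30 RPKM in LG (adjusted *p* = 0.135). *ImpL2*, which encodes a secreted antagonist of insulin-like peptides, was higher (30.1 ± 2.82 RPKM in AD, against 4.05 ± 2.70 RPKM in LG).

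Of 11 circadian clock genes, 7 were higher and none lower (median 1.70). *tim* had 34.6, 24.3 and 28.1 RPKM in AD, against 0.325, 0.107 and 0 RPKM in LG (log2 fold change 4.71 ± 0.23 (SE), adjusted *p* = 6.31e-06), and *Clk* 9.97, 12.5 and 7.70 RPKM in AD, against 0 RPKM in all 3 LG samples. The activator *cyc*, partner of Clk, was measured in both groups and averaged 12.9 ± 2.31 RPKM in AD, against 3.27 ± 0.714 RPKM in LG, whereas the kinase gene *dco* averaged 32.4 ± 0.467 RPKM in AD, against 32.3 ± 2.41 RPKM in LG. *per* had 1.10, 1.32 and 1.40 RPKM in AD, against 0 RPKM in all 3 LG samples, barely above the limit of detection, and its call was lost without any single LG replicate. With all LG values at 0, the direction of *Clk* and *per* was fixed by the filter. The time of day at which the samples were taken is not stated. Among the Hox genes, *Ubx* had 10.7, 9.58 and 10.6 RPKM in AD, against 0.274, 0.231 and 0.440 RPKM in LG (log2 fold change 3.11 ± 0.21 (SE), adjusted *p* = 2.48e-05), the 1 gene called of 4 tested.

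**Figure D5:**
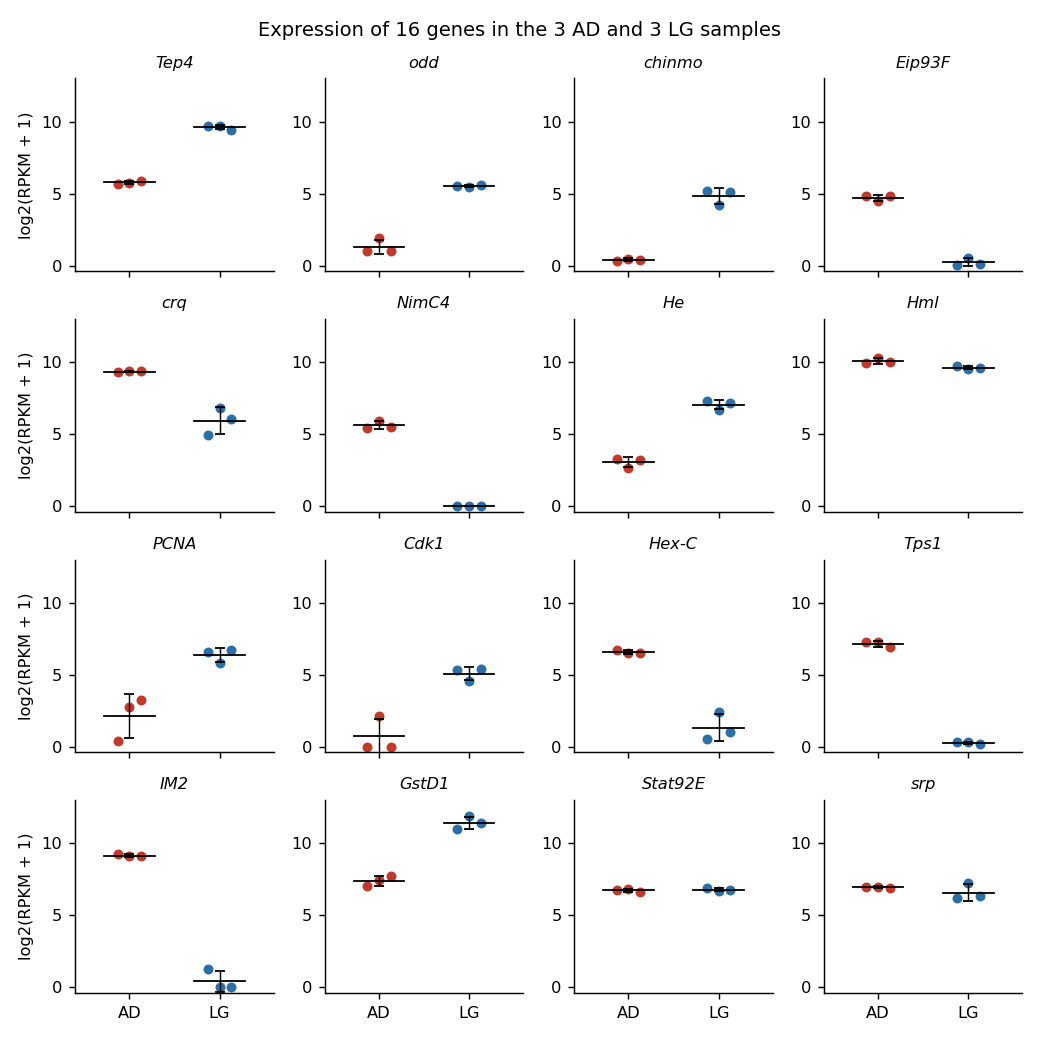
Expression of 16 genes as log2(RPKM + 1) in the 3 AD samples (left, red) and the 3 LG samples (right, blue) of each panel, with the mean and its SD in black. *chinmo* and *Eip93F* show opposite patterns with no overlap, and *Stat92E* and *srp* show groups that overlap.

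Of 12 tested Notch pathway genes 1 was called, against 30.4% of all genes, the ubiquitin ligase gene *neur*, with 11.8, 13.4 and 12.3 RPKM in AD, against 2.26, 0.613 and 1.80 RPKM in LG (log2 fold change 2.46 ± 0.30 (SE), adjusted *p* = 0.000355). The receptor gene *N* averaged 28.6 ± 6.06 RPKM in AD, against 18.8 ± 2.1 RPKM in LG (adjusted *p* = 0.0442) and the ligand gene *Ser*, expressed in the niche and its neighbours, 5.85 ± 0.582 RPKM in AD, against 2.15 ± 1.79 RPKM in LG (adjusted *p* = 0.0401), with a call for *Ser* only without LG replicate 1 or with array weights. Of 8 tested JAK/STAT genes, *chinmo* and *et* were lower and none was higher, which is to be read against 10.4% lower and 20% higher over all genes. The phosphatase gene *Ptp61F* passed the test with a rise below 2-fold (0.80 ± 0.16), as did *zfh1*. The kinase gene *hop* averaged 6.72 ± 0.710 RPKM in AD, against 13.5 ± 3.07 RPKM in LG (log2 fold change -0.89 ± 0.22, adjusted *p* = 0.0103), and it was called lower without LG replicate 2 and when scaled to reads. The inhibitor gene *Socs36E* averaged 7.68 ± 4.12 RPKM in AD, against 1.99 ± 1.05 RPKM in LG (adjusted *p* = 0.0187). The ligand genes *upd1*, *upd2* and *upd3* did not exceed 1.63 RPKM in any sample.

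In the growth factor and insulin list, 6 of 9 tested genes were higher and none lower (median 1.03), and 3 were higher when the samples were scaled to reads. *Thor*, the translation inhibitor 4E-BP, had 339, 332 and 262 RPKM in AD, against 41.1, 36.3 and 41.1 RPKM in LG (log2 fold change 2.94 ± 0.15 (SE), adjusted *p* = 6.37e-06), and *foxo*, the transcription factor that induces it, 37.6, 24.9 and 28.5 RPKM in AD, against 5.64, 3.60 and 6.03 RPKM in LG (log2 fold change 2.37 ± 0.24 (SE), adjusted *p* = 0.000144). Both were higher in each AD sample than in any LG sample. The PDGF/VEGF receptor gene *Pvr* averaged 69.3 ± 4.51 RPKM in AD, against 43.8 ± 7.04 RPKM in LG (log2 fold change 0.66 ± 0.15, adjusted *p* = 0.00883), and the insulin-like peptide gene *Ilp6* 11.4 ± 2.12 RPKM in AD, against 29.8 ± 19.8 RPKM in LG, with a value of 52.5 RPKM in LG replicate 2.

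Detoxification and redox genes moved both ways. The glutathione transferase gene *GstD1* (FBgn0001149, 3R, 12367817 to 12369268, minus strand) had 130.4, 170.3 and 208 RPKM in AD, against 2078, 3748 and 2690.2 RPKM in LG (log2 fold change -4.04 ± 0.25 (SE), adjusted *p* = 1.51e-05), and it was the third of the genes outside rRNA by mean level in LG. *GstE9*, of another class of the family, had 19.3, 11.8 and 19.6 RPKM in AD, against 0.213, 0 and 0.843 RPKM in LG (log2 fold change 3.74 ± 0.32 (SE), adjusted *p* = 6.29e-05). No AD value overlapped an LG value in either gene. Catalase, *Cat*, was higher (54.5 ± 5.01 RPKM in AD, against 21.0 ± 3.06 RPKM in LG), and superoxide dismutase, *Sod*, passed the test with a change below 2-fold (0.60 ± 0.14). Among the 12 tested genes of the heat shock list only the cochaperone *DnaJ-1* was called, with 341, 278 and 232 RPKM in AD, against 39.2, 62.3 and 47.9 RPKM in LG (log2 fold change 2.49 ± 0.21 (SE), adjusted *p* = 6.08e-05). *CG4461*, with the synonym Hsp20, was not on this list and was among the largest rises. *Hsp27* had 46.5, 19.7 and 35.2 RPKM in AD, against 96.4, 732 and 173 RPKM in LG, with LG replicate 2 apart from the other samples, and it was called lower without LG replicate 1 or LG replicate 2 and when scaled to reads (adjusted *p* = 0.0104 with all samples). In nucleotide synthesis, the first step of purine synthesis was split between paralogs. *Prat2* had 9.13, 10.05 and 10.9 RPKM in AD, against 0 RPKM in all 3 LG samples (log2 fold change 3.46 ± 0.22 (SE), adjusted *p* = 1.51e-05), while *Prat* averaged 1.94 ± 1.05 RPKM in AD, against 7.16 ± 1.20 RPKM in LG (log2 fold change -1.52 ± 0.30), with a call that was lost without AD replicates 1 or 2 or LG replicates 1 or 3.

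Genes of muscle gave 9 of 18 higher and 2 lower (median 1.11), with isoforms on both sides. *TpnC4*, a troponin C of flight muscle, had 129, 109 and 125 RPKM in AD, against 0 RPKM in all 3 LG samples, at least 104-fold higher, and the flight muscle actin *Act88F* had 69.5, 44.0 and 62.3 RPKM in AD, against 0.420, 0 and 0 RPKM in LG (log2 fold change 5.70 ± 0.26 (SE), adjusted *p* = 4.48e-06). Isoforms expressed in larval muscle went the other way. *TpnC73F* had 8.76, 20.9 and 17.98 RPKM in AD, against 85.8, 146 and 119.9 RPKM in LG, and *Act57B* 18.6, 42.8 and 32.1 RPKM in AD, against 111, 108 and 124 RPKM in LG. The AD and LG values of these 4 genes did not overlap. The summed RPKM of the list was 1006, 1018 and 997 in AD, against 406, 505 and 507 in LG. Larval fat body genes were lower in all 6 cases tested (median -3.03), such as the storage protein gene *Lsp1beta* with 5.42, 3.01 and 7.59 RPKM in AD, against 61.1, 33.9 and 27.5 RPKM in LG and *Fbp2* with 0, 1.85 and 0 RPKM in AD, against 24.7, 20.9 and 24.7 RPKM in LG. All 7 genes of oenocytes and cuticular hydrocarbons were higher (median 3.64), with *Cyp4g1*, the hydrocarbon-forming P450, at 1227, 949.6 and 473 RPKM in AD, against 11.0, 1.30 and 3.50 RPKM in LG and *Fad2*, a female desaturase, at 39.6, 23.7 and 13.6 RPKM in AD, against 0 RPKM in all 3 LG samples. For both, AD replicate 1 was the highest and AD replicate 3 the lowest. Of the heart and pericardial cell genes, 4 of 7 were lower and 1 was higher (median -1.21). The gene that rose, *svp*, an orphan nuclear receptor gene of heart cells, had 7.22, 6.62 and 5.46 RPKM in AD, against 0.2995, 0.0590 and 0.0791 RPKM in LG (log2 fold change 2.70 ± 0.24 (SE), adjusted *p* = 7.14e-05). The lower genes were *H15*, whose call was lost without any single LG replicate, *Cubn* and the nephrocyte endocytosis gene *Amnionless* with 0, 0 and 1.12 RPKM in AD, against 34.6, 16.4 and 25.03 RPKM in LG (log2 fold change -4.30 ± 0.39 (SE), adjusted *p* = 8.42e-05) and *Hand*, a factor of heart and lymph gland, with 0, 0.464 and 0.424 RPKM in AD, against 26.3, 12.5 and 23.3 RPKM in LG (log2 fold change -4.02 ± 0.33 (SE), adjusted *p* = 5.07e-05). The gut and ovary lists were at the limit of detection for most genes, with none of 16 gut genes and 2 of 14 ovary genes tested.

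Genes annotated as ncRNA were higher in AD more often than protein-coding genes, whereas those annotated as snoRNA, also noncoding, were higher less often. Of 233 ncRNA genes tested, 77 were higher (33.0%) and 3 lower (1.29%), with a median log2 fold change of 1.0, and of 7203 protein-coding genes 1430 were higher (19.9%) and 778 lower (10.8%), with a median of 0.04. Of 132 snoRNA genes tested, 17 were higher (12.9%) and 7 lower (5.30%), with a median of 0.40. This comparison of gene classes was not tested. The ncRNA genes were low, with a median of 4.25 RPKM in AD and 1.67 RPKM in LG, against 7.49 and 6.81 RPKM for protein-coding genes. More genes exceeded RPKM 1 in each AD sample (7645 to 7677) than in each LG sample (6935 to 7076). The part of the filter in this difference was not tested. *CR31781* had 203, 180 and 190 RPKM in AD, against 0.188, 0.739 and 1.53 RPKM in LG (log2 fold change 6.79 ± 0.27 (SE), adjusted *p* = 2.96e-06), the largest rise of a noncoding gene. By chromosome arm, 15.9% of the tested genes of 2L were lower, and 10.3% were lower without the histone cluster, against 8.21% of those of X. On the small chromosome 4, 15 of 64 genes were higher (23.4%, close to the 20% of all genes tested) and none was lower, against 10.4% of all genes tested.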

How the data were processed

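RNA of AD and LG (3 samples each) was sequenced. Per the file headers and the deposited processing notes, the authors deposited a single table of RPKM values, with decimal commas. Those notes name Trimmomatic 0.32, TopHat, HISAT2 2.1.0, HTSeq 0.5.4p5, Cufflinks 2.2.1 and DESeq2 1.2.8, and the builds BDGP 5 and dm 6. How strand was used is not given in the sources used here. The larval hemocyte columns were not used. Reads were recovered as RPKM times the exon length of Ensembl BDGP6.54, which matched 98.9% of 17490 genes, and were whole within 0.02 for 97.7 to 97.9% of values. The main test was limma 3.58.1, run in R 4.3.3 with a mean-variance trend on log2(RPKM + 1), over the genes that exceeded RPKM 1 in 3 or more samples, with Benjamini-Hochberg adjustment over all 7748 genes, adjusted p below 0.01 and fold above 2. It was also run on simulated reads that gave every gene and both groups the same spread, without an aberrant library. No result here rests on that run. Positions are those of BDGP6.54. Genes were named from among the 15 largest changes each way, the 10 highest in each group, the 10 highest at 0 in the other group, the smallest adjusted p, and list members by size of change or level. The serine protease set and *roX1* were named after their values were seen. Members and lists were chosen with earlier results of these data known. The labels call the replicates biological and independent. The p-values weigh the group difference against the spread between these samples, estimated in part from all genes.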

Additional observations from a re-analysis of the deposited data

How the results depend on the processing

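The main setting gave 1553 genes higher and 805 lower in AD. The count of lower genes moved to 439 with a pseudocount of 5, to 1324 when the samples were scaled to reads outside rRNA genes, and to 490 without LG replicate 3. Leaving out 1 sample at a time gave 1197 to 1577 higher and 490 to 810 lower genes. Scaling changed the balance of the calls. The higher genes were 66% of the calls in the main setting, 53% with scaling to total reads, 48% with scaling to reads outside rRNA genes and 50% with quantile normalization (1218 higher and 1207 lower). Without a filter on low values 1362 genes were higher and 619 lower, and with a filter at RPKM 5 the counts were 1211 and 646. Voom on the recovered reads, an alternative chosen after seeing the data, gave 1655 higher and 798 lower, and array weights gave 1767 and 1052. The cause of these shifts was not tested. No called gene named in the text reversed its direction under any of these alternatives. A fit with the replicate number as a block gave 1376 higher and 655 lower genes. The deviations of samples with the same number showed little correlation (Pearson's r of -0.043, -0.026 and 0.009 across genes). Whether samples with the same number were handled together cannot be read from these values. A single fit with all 9 samples and voom with TMM factors were not run. Depth limits the lower end, since 3 reads on 1 kilobase of exon stood for 0.907 to 0.993 RPKM in AD and 0.332 to 0.990 RPKM in LG.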
